A study of Canis lupus familiaris with 6 samples.

Results

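The middle time of an induction course was examined, 45 h after tetracycline was added to MDCK-II cells in which that drug turns on a short hairpin RNA directed at scribble. The comparison rests on 2 one-colour Agilent arrays, 1 from cells given tetracycline at 5 µg/ml and 1 from cells left without it. The members are the features well above background on both arrays. A feature is a gene with a symbol, represented by its brightest probe, or a probe without a symbol. By this rule 28195 of 42695 features were measured at 45 h, among them 1009 of 1436 named genes. The samples analysed here are 6 arrays in all, with and without tetracycline at 30, 45 and 60 h. The drug went in 6 h after plating, and the RNA of each array was mixed from 3 wells. Every group carries the hairpin construct, the untreated ones included. Tetracycline-treated cells without the hairpin, or with a hairpin of another sequence, were not analysed here, so the effects of the hairpin and of the drug itself cannot be told apart. Each arm has 1 array at 45 h, so the differences have no replicate check and carry no p-value.

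Scribble is a large scaffold protein of the basolateral membrane, built from leucine-rich repeats and PDZ domains. Together with Dlg and Lgl it holds the basolateral domain apart from the apical domain set by the Par and Crumbs complexes, and it takes part in junction assembly and in restraining growth. MDCK-II cells come from dog kidney tubule and form polarized sheets with tight junctions, which has made them a standard model of epithelial polarity. An induced hairpin lowers the messenger RNA first, and protein made earlier is then lost only as it turns over, which is why several times after induction are commonly compared. Which transcripts differed at 45 h and not yet at 30 h is the question addressed here, with the 60 h arrays as a separate measurement, since no array is shared between the times.

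On the 6 arrays 64.3% to 68.8% of non-control spots were well above background. SCRIB itself has 0 probes that could be matched by name, so the depth of the knockdown was not analysed here. The arrays lie on 2 slides: both 30 h arrays and the untreated 45 h array on the first, the treated 45 h array and both 60 h arrays on the other. Slide and arm therefore cannot be told apart within the 45 h pair, whereas for 30 h, and again for 60 h, both arrays are on the same slide. Of 9 tubule epithelium markers with a probe, 8 were measured at 45 h, and their summed signal was 75701 with and 91647 without tetracycline, within a range of 75701 to 93944 over the 6 arrays. The exception, the uromodulin gene UMOD, was not above background on any array. The summed signal of 7 leukocyte markers was 795 with and 610 without tetracycline (range 610 to 795), with 2 of them not above background. Of 9 muscle markers 6 were not above background on either 45 h array (sums of 367 with and 457 without tetracycline, range 307 to 1044). For endothelial markers the sums were 16985 against 15940 (range 15266 to 16985). For fibroblast markers they were 2290.1 against 2225 (range 1999 to 2304). The leukocyte sums of the 45 h pair are thus the highest and the lowest of the 6 arrays. Whether these differences in other cell types' markers bear on the values below was not tested.

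Differences are given as log2 of the level with tetracycline minus that without, and levels as processed signal scaled to a common 75th percentile. At 45 h 214 features (0.759%) were at least 2-fold higher with tetracycline and 341 (1.21%) at least 2-fold lower. At 1.5-fold the counts were 924 higher (3.28%) and 1239 lower (4.39%). Among the named genes 10 (0.991%) were 2-fold higher and 23 (2.28%) 2-fold lower, and 37 (3.67%) and 67 (6.64%) passed 1.5-fold. For scale, the 30 h pair held 80 higher and 137 lower features of 27010 past 2-fold. The 60 h pair held 513 higher (1.86%) and 709 lower (2.57%) of 27612. The middle time thus lay between the outer ones in both directions.

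The spread that a pair of arrays shows without any difference between arms is not known here. The measures below bear on it. Over 26 probes printed at several spots, the 45 h difference varied between spots of the same probe with an SD of 0.0989. Over 395 genes with several probes, it varied between probes of a gene with an SD of 0.162. Over all 28195 features the SD was 0.351 around a median of 0.03, a spread that also holds any difference between arms and slides. The scanner program's own error model gave a median standard error of 0.20 for a difference, and that error stands after ± below. None of these measures isolates the spread between cultures.

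The dim features held most of the 2-fold differences. Features were divided into 4 classes of equal size by their mean signal over the 6 arrays. In the dimmest class 294 passed 2-fold, against 127, 82 and 52 in the classes above it. The SD of the 45 h difference was 0.452 in the dimmest class and 0.271 in the brightest. Of the named genes labelled in the figure, CA2 (-1.06) and VIM (-0.90, under 2-fold) were among the brightest features. Larger differences stood at lower levels, with CCL2 (-3.63) in the class below the brightest. MYH3 (-2.58) and EDA (-2.25) were among the dimmest.

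**Figure D1:**
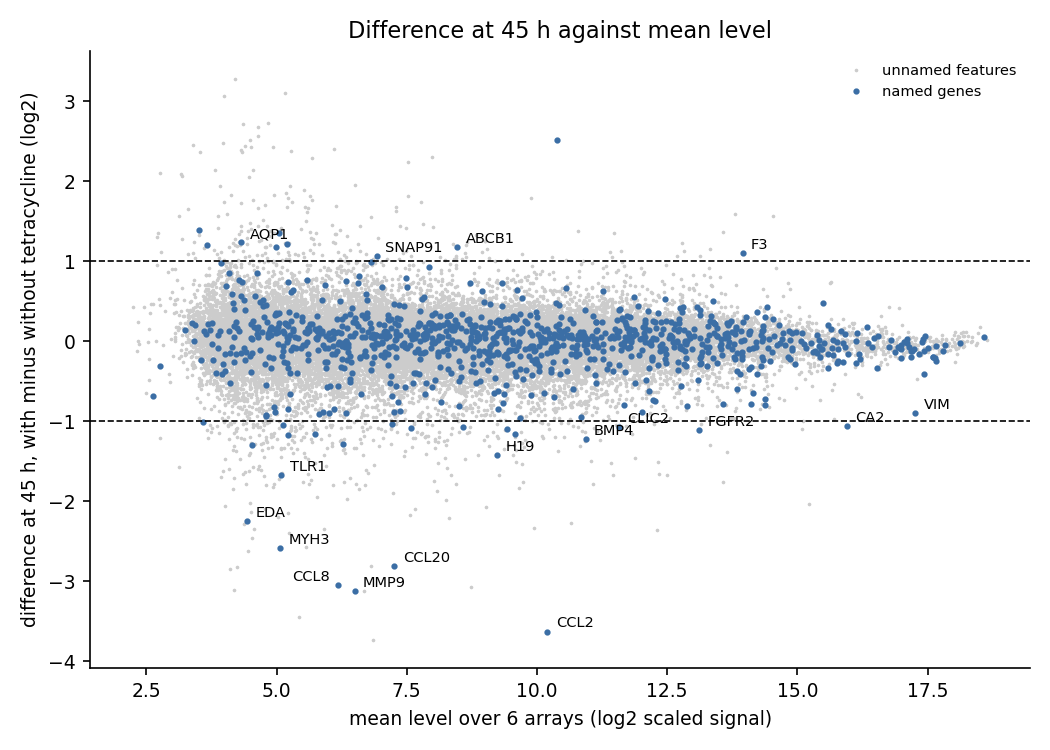
Difference at 45 h (log2, with minus without tetracycline) against the mean level over the 6 arrays (log2 scaled signal), 1 point per feature measured on both 45 h arrays; grey points are features without a symbol, blue points the 1009 named genes, dashed lines mark 2-fold. AQP1 stands highest and CCL2 lowest among the labelled genes, and the cloud is widest at low levels.

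To find what first appeared at this time, the 45 h difference was set beside that at 30 h. Of the 555 features past 2-fold at 45 h, 465 were also measured on both 30 h arrays. Among these 56 had been 2-fold different in the same direction at 30 h, 7 higher and 49 lower. A further 127 stood between 1.5- and 2-fold the same way, and 12 were at least 1.5-fold different the opposite way. The remaining 270 were under 1.5-fold at 30 h and are called first past 2-fold at 45 h. They comprise 110 higher features (0.409% of 26877 measured at both times) and 160 lower ones (0.595%). Among the differences present earlier, lower features were thus the majority.

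The 60 h arrays took no part in choosing these features, and 255 of the 270 were measured there. At 60 h 148 of the 255 (58.0%) were again at least 2-fold different in the same direction, 52 of 102 higher and 96 of 153 lower ones. Another 25 stood between 1.5- and 2-fold, 77 were under 1.5-fold and 5 were at least 1.5-fold different the opposite way. The sign was the same in 225. Over all 255, held or not, the median difference was 0.17 at 30 h, 1.18 at 45 h and 1.12 at 60 h for the 102 higher features, and -0.34, -1.20 and -1.42 for the 153 lower ones. The rule bounds the 30 and 45 h medians, and not the 60 h ones. The 96 lower features that held had a median of -0.39 at 30 h, already in their later direction.

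Whether a first difference was met again at 60 h went with brightness. In the dimmest class 34 of 130 held (26.2%), in the next 52 of 60 (86.7%), then 35 of 37 (94.6%) and 27 of 28 in the brightest (96.4%). Over the 3 brighter classes together 114 of 125 held (91.2%). Looking back from 60 h, 1113 features were 2-fold different there and measured at all times. Of them 710 (63.8%) were already at least 1.5-fold different the same way at 45 h, against 146 (13.1%) at 30 h. Over all features 7.67% were at least 1.5-fold different in either direction at 45 h and 3.15% at 30 h. More of the 60 h differences were thus present at that size at 45 h than at 30 h, when fewer features in general had reached it.

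**Figure D2:**
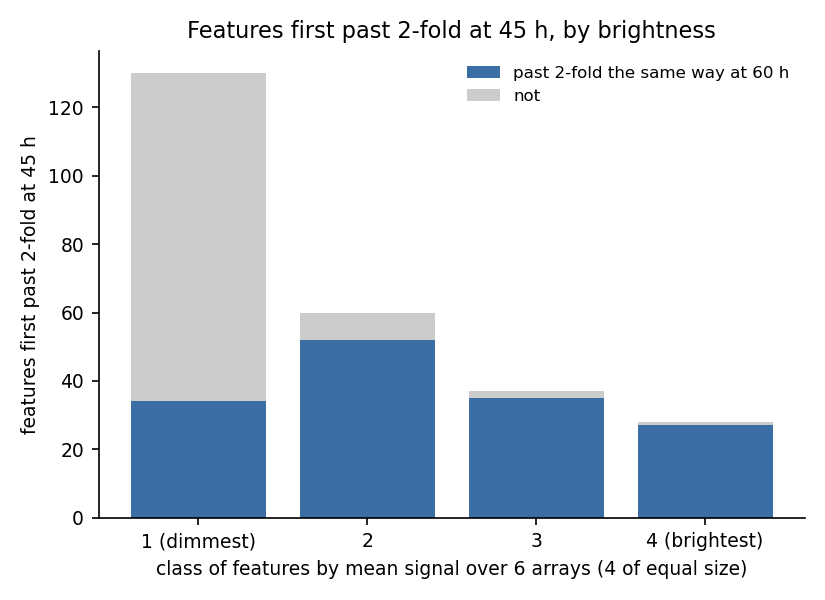
Number of features first past 2-fold at 45 h and measured at 60 h, by class of mean signal over the 6 arrays; the blue part of each bar was past 2-fold the same way at 60 h and the grey part was not. In the dimmest class 34 of 130 held, in the brightest 27 of 28.

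Among named genes 6 were first past 2-fold higher at 45 h and 11 lower, and 4 and 6 of them were 2-fold different again at 60 h. Among the higher genes that held were those of the drug efflux pump P-glycoprotein (ABCB1), tissue factor (F3) and a clathrin assembly protein (SNAP91). The 6 lower ones are the noncoding RNA H19, the growth factor receptor FGFR2, a guanylate cyclase subunit (GUCY1B1), carbonic anhydrase 2 (CA2), the chloride channel family protein CLIC2 and the sulfotransferase GAL3ST1. All 10 were well above background on all 6 arrays.

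Signals of F3, the cell-surface receptor that starts coagulation, were without and with tetracycline 16489 and 20602 at 30 h, 11436 and 24573 at 45 h, and 7442 and 21947 at 60 h. The treated level was nearly flat, and much of the growing gap came from a lower untreated level at each later time. At 45 h the treated signal was 2.15-fold the untreated one. PLAU, the urokinase that activates plasminogen, was under 2-fold at this time, with signals of 169 and 153 at 30 h, 132 and 212 at 45 h, and 89.0 and 550.1 at 60 h. Its difference was -0.14 at 30 h, 0.68 ± 0.21 at 45 h and 2.63 at 60 h, on 2 of 2 probes higher at 45 h. F2RL1, a protease-activated receptor, was apart already at 30 h, with 0.59 then and 0.75 ± 0.21 at 45 h.

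ABCB1, which pumps drugs and other hydrophobic compounds out of the apical membrane, had signals of 264 and 283 at 30 h, 219.9 and 499 at 45 h, and 170.2 and 1410.1 at 60 h. The arms were alike at 30 h, and the treated level differed more between the times than the untreated one. The difference at 45 h was 1.18 ± 0.20 (2.27-fold), with both of its probes higher. SNAP91 stood at 94.0 and 83.0 at 30 h, 74.1 and 155 at 45 h, and 93.5 and 388 at 60 h, and its 3 probes were all higher at 45 h, between 0.48 and 1.07. The brightest probe gave 1.07 ± 0.21. Against the untreated 60 h array on the same slide that difference was 0.73, still higher but under 2-fold.

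H19, an imprinted RNA without a protein product, had signals of 901 and 673 at 30 h, 962 and 359 at 45 h, and 1227 and 187 at 60 h without and with tetracycline. The untreated signal was close to constant from 30 to 45 h while the treated one was lower at the later time, which gives a difference of -1.42 ± 0.20 (2.68-fold lower). FGFR2, a receptor for fibroblast growth factors on epithelial cells, had signals of 10153 and 8453 at 30 h, 13566 and 6280.4 at 45 h, and 18242 and 3543 at 60 h. Here the arms parted from both sides, and the difference at 45 h was -1.11 ± 0.20 with both probes lower. IGF2, the growth factor gene next to H19, was dim, at 76.6 without and 52.1 with tetracycline at 45 h, a difference of -0.56 ± 0.22 that misses 1.5-fold.

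CA2, which supplies protons and bicarbonate for acid-base transport, was among the brightest genes on the arrays, at 81220.2 and 63053 at 30 h, 93944 and 45205 at 45 h, and 100401 and 29452 at 60 h. The treated level was lower at each later time, the untreated one higher, and the 45 h difference was -1.06 ± 0.20 on both probes. CLIC2 likewise had a higher untreated signal at each later time, while its treated one was lower at 45 and 60 h than at 30 h. Its signals were 3488 and 2770.2 at 30 h, 4083 and 1942 at 45 h, and 5262 and 2035 at 60 h, with a 45 h difference of -1.07 ± 0.20 on 3 of 3 probes. GUCY1B1, part of the enzyme that makes cyclic GMP in response to nitric oxide, stood at 67.5 and 55.7 at 30 h, 113 and 46.3 at 45 h, and 183 and 62.1 at 60 h. Its untreated level was higher at each time, and its 45 h difference of -1.29 ± 0.23 was the second largest of these 6. GAL3ST1, which makes sulfatide and other sulfated glycolipids, was at 497 without and 237 with tetracycline at 45 h, a difference of -1.07 ± 0.20 after -0.38 at 30 h. With normexp background correction in place of the scanner program's own, SNAP91 (0.70), GUCY1B1 (-0.64) and GAL3ST1 (-0.86) were under 2-fold, as was CA2 (-0.99) with quantile scaling and SNAP91 (0.80) with the mean of its probes. Normexp correction as used here adds a fixed offset to every signal, which by itself makes differences smaller, most of all between dim signals. A smaller value with it, here and below, thus cannot separate the background method from the offset.

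**Figure D3:**
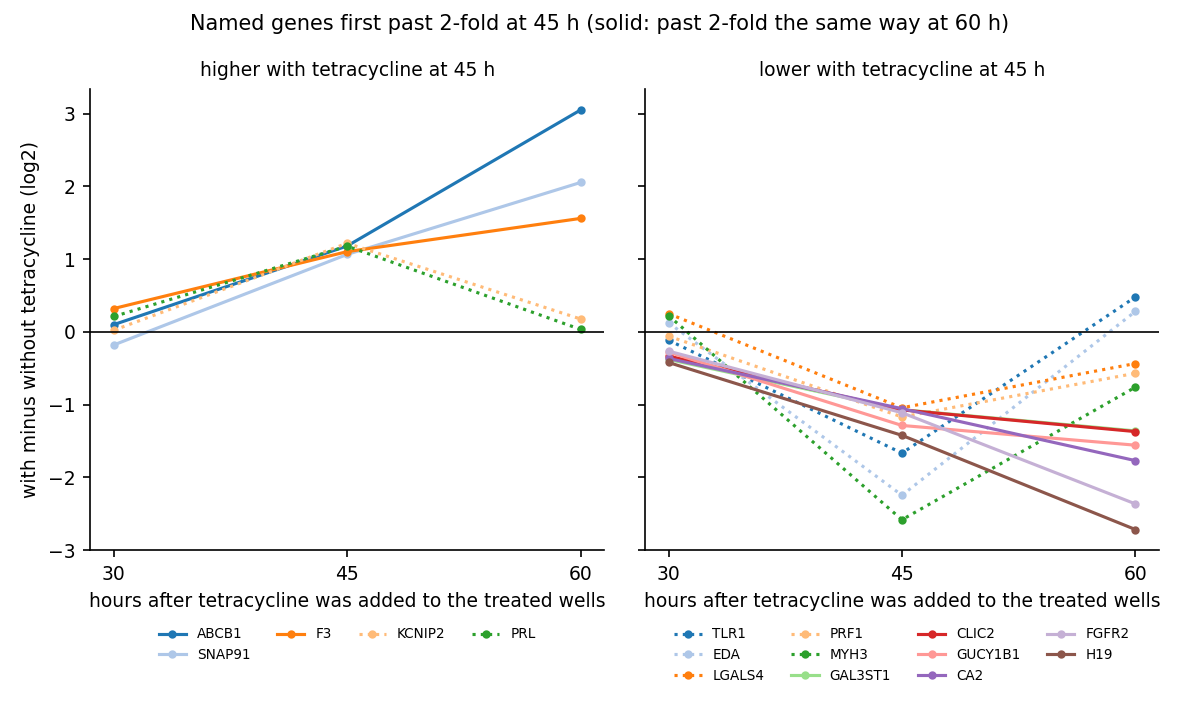
Difference (log2, with minus without tetracycline) at 30, 45 and 60 h for 16 of the 17 named genes first past 2-fold at 45 h, higher ones on the left and lower ones on the right; solid lines mark genes past 2-fold the same way at 60 h, dotted lines the 7 that were not. The solid lines run on away from 0 after 45 h, whereas the dotted ones turn back toward it, a contrast that the choice of line by the 60 h value in part fixes.

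A wider group of named genes was at least 1.5-fold different at 45 h with a difference under 0.29 in size at 30 h. Higher among them were the transcription repressor SNAI2, haem oxygenase HMOX1, PLAU, the cell cycle activators CCND1 and CDC25A, the vesicle traffic GTPase RAB2A and the collagen gene COL1A1. Lower were the sodium pump regulator FXYD2, vimentin (VIM), the phosphate exporter XPR1, the ciliary gene NPHP4, the prostaglandin synthase PTGES2 and the dehydrogenase DHDH. With normexp correction HMOX1 (0.50), CDC25A (0.30), RAB2A (0.47), COL1A1 (0.35), XPR1 (-0.41), NPHP4 (-0.36) and PTGES2 (-0.48) were under 1.5-fold, PTGES2 (-0.57) also with quantile scaling.

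SNAI2, a repressor of E-cadherin and a regulator of mesenchymal transition, had signals of 109 and 102 at 30 h, 76.1 and 151 at 45 h, and 52.1 and 315 at 60 h. The 2 arms crossed between 30 and 45 h. The difference went from -0.10 to 0.99 ± 0.21, just under 2-fold. VIM, the intermediate filament protein of mesenchymal cells and of MDCK cells in culture, was at 202641 and 182386 at 30 h, 202879 and 108906 at 45 h, and 188238 and 96795 at 60 h. Its difference of -0.90 ± 0.20 on 2 of 2 probes had the opposite sign to that of SNAI2. COL1A1 was dim and went the way of SNAI2, with 47.2 without and 76.8 with tetracycline at 45 h and a difference of 0.70 ± 0.22.

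HMOX1, which breaks down haem and is a classic target of the NRF2 stress response, had signals of 89.1 and 88.4 at 30 h, 75.8 and 133 at 45 h, and 54.7 and 179 at 60 h. Treated and untreated cells were equal at 30 h, and at 45 h the difference was 0.82 ± 0.21. The cystine transporter gene SLC7A11 went from -0.48 at 30 h to 0.73 ± 0.21 at 45 h, its untreated signal being 77.4, 76.2 and 66.4 at the 3 times and its treated one 55.4, 126 and 255. These 2 were the only members of the 18 measured in the NRF2 and redox list to pass 1.5-fold at 45 h.

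CCND1, cyclin D1, had signals of 2756 and 2944 at 30 h, 2162 and 3355 at 45 h, and 1103 and 3382 at 60 h. Its treated level differed little between the times, while the untreated one was lower at 45 h and lower still at 60 h, and the 45 h difference was 0.63 ± 0.20. For CDC25A, a phosphatase that activates cyclin-dependent kinases, both arms were dimmer at later times (61.7 and 53.9 at 30 h, 35.4 and 55.2 at 45 h, and 18.7 and 33.3 at 60 h) and the difference was 0.64 ± 0.23. RAB2A, a GTPase of traffic between the endoplasmic reticulum and the Golgi, stood at 623 and 971, a difference of 0.64 ± 0.20.

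On the lower side FXYD2, which tunes the sodium pump in kidney tubule, had signals of 1498 and 1307 at 30 h, 2298 and 1194 at 45 h, and 5212 and 1348 at 60 h. The treated level was nearly flat and the untreated one higher at each time, with a difference of -0.95 ± 0.20 at 45 h. DHDH, a dihydrodiol dehydrogenase, showed the same shape at 127 and 109 at 30 h, 218 and 119 at 45 h, and 478 and 115 at 60 h and -0.87 ± 0.21. The cardiac troponin gene TNNI3 was higher at each time in both arms, at 119 and 122 at 30 h, 261 and 165 at 45 h, and 808 and 290.2 at 60 h, and less so with tetracycline (-0.66 ± 0.21, and -0.50 with normexp correction). In FXYD2, DHDH and TNNI3 the treated cells thus lay below a level that was higher with time in the untreated cells.

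**Figure D4:**
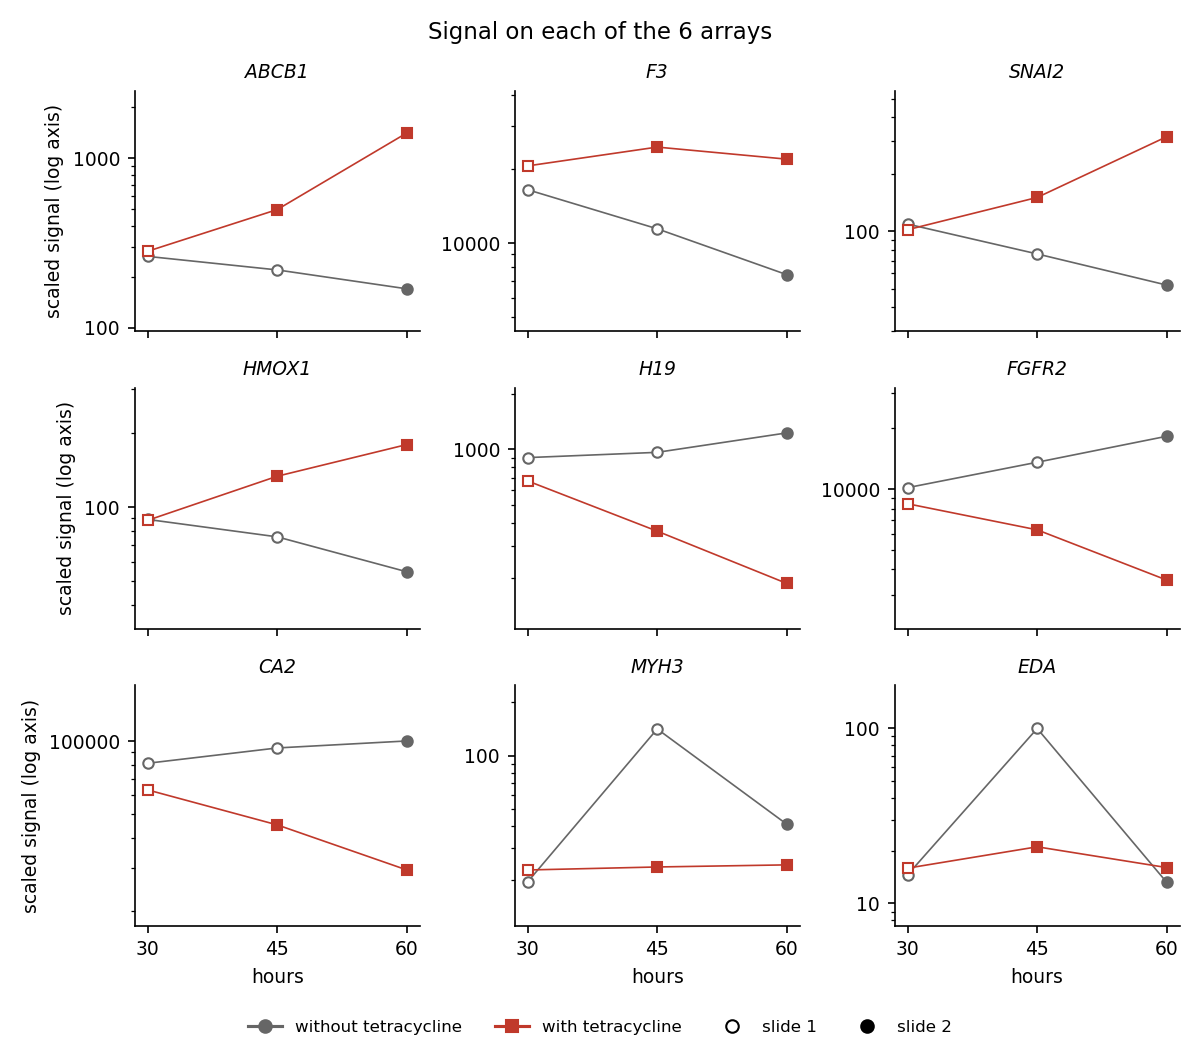
Scaled signal (log axis) on each of the 6 arrays for 9 genes against hours; grey circles are without and red squares with tetracycline, open symbols lie on the first slide and filled ones on the other. From ABCB1 to CA2 the arms part progressively, whereas MYH3 and EDA are highest on the untreated 45 h array and lower on the untreated 60 h one.

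Because the 45 h pair spans both slides, the treated 45 h array was also set against the untreated 60 h array, which shares its slide. That comparison also holds 15 h of culture. Both arrays took part in choosing the genes that held, so the values are a description and no check on the slide. They were 1.72 for F3, 1.55 for ABCB1, -1.77 for H19 and -1.54 for FGFR2.

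A different set of named genes was apart by 1.5-fold or more at 30 h already and remained so at 45 h. They include the chemokines CCL2, CCL8, CCL20 and CXCL10, the gelatinase MMP9, the transcription factor subunit TAF12, the betaine transporter SLC6A12, the sulfotransferase CHST4, the growth factor BMP4 and the gap junction gene GJB2, all lower. CCL2, which draws monocytes, had signals of 3972 and 721 at 30 h, 3755 and 304 at 45 h, and 3145 and 259 at 60 h. In the untreated arm the level was stable, and in the treated arm it was lower again at 45 h than at 30 h, giving -3.63 ± 0.20. CCL20 stood at 367 and 90.8 at 30 h, 401 and 57.3 at 45 h, and 371 and 46.2 at 60 h and CCL8 at 217 and 43.9 at 30 h, 181 and 21.9 at 45 h, and 167 and 22.8 at 60 h, with 45 h differences of -2.81 ± 0.21 and -3.05 ± 0.27. Normexp correction gave -2.00 for CCL20 and -1.50 for CCL8, and put CXCL10 (-0.62), TAF12 (-0.95), SLC6A12 (-0.84) and GJB2 (-0.68) under 2-fold.

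MMP9, which digests basement membrane collagen, had its largest difference at 45 h. Its signals were 249 and 95.8 at 30 h, 126 and 14.5 at 45 h, and 231 and 54.4 at 60 h, and both arms were lower at 45 h than at either other time. The 45 h difference of -3.12 ± 0.30 was on both probes, and normexp correction gave -1.36. BMP4 likewise was furthest apart at the middle time, with signals of 2966 and 1919 at 30 h, 2747 and 1182 at 45 h, and 2216 and 1355 at 60 h and a treated level 2.32-fold lower at 45 h, between differences of -0.63 at 30 h and -0.71 at 60 h. TAF12 differed by nearly as much at all 3 times, at 968 and 455 with -1.09 ± 0.20 at 45 h. For GJB2, connexin 26, 3 of 3 probes were lower and the difference was -1.03 ± 0.21. AQP1, a water channel, stood higher, at 19.3 without and 45.5 with tetracycline (1.23 ± 0.26), and was not well above background without tetracycline at 30 or 60 h. With normexp correction AQP1 was under 1.5-fold, at 0.44.

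The 7 named genes that were first past 2-fold at 45 h and under it at 60 h all belonged to the dimmest class. MYH3, an embryonic muscle myosin, had signals of 19.4 and 22.7 at 30 h, 141 and 23.6 at 45 h, and 41.0 and 24.2 at 60 h. EDA, the ectodysplasin ligand, had 14.6 and 15.9 at 30 h, 100.0 and 21.1 at 45 h, and 13.2 and 16.0 at 60 h. For both, the untreated 45 h array stood far above the other 5 arrays, and the differences were -2.58 ± 0.25 and -2.25 ± 0.26. TLR1, a receptor for bacterial lipopeptides, was at 21.3 and 19.7 at 30 h, 65.1 and 20.5 at 45 h, and 45.0 and 62.7 at 60 h, so its untreated 45 h signal was matched by the treated array at 60 h. Perforin, PRF1, was -1.17 ± 0.23 and the galectin gene LGALS4 -1.04 ± 0.27. The higher 2 were prolactin, PRL, at 1.18 ± 0.25, and the potassium channel subunit KCNIP2, 2.33-fold higher, where 2 of 3 probes had the opposite sign. With normexp correction all 7 were nearer 0, at -1.28 for MYH3, -0.92 for EDA, -0.57 for TLR1, -0.54 for PRF1, -0.30 for LGALS4, 0.48 for PRL and 0.52 for KCNIP2, so that MYH3 alone of the 7 stayed past 2-fold. At such dim signals the offset of that correction makes differences smaller by itself. A shift in that direction was therefore built in and is no check on the 7. The mean of its probes gave 0.33 for KCNIP2.

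Over all features, 173 had a 45 h difference at least 1 away from the mean of those at 30 and 60 h. Of these 80 lay outside the range of the other times by at least 1, 39 above and 41 below. Without the dimmest class the numbers were 19 and 6. IL18, an inflammatory cytokine of brighter signal, was among the named genes with the opposite sign at 45 h to both other times, at -0.47, 0.59 ± 0.21 and -0.44. The ATP receptor P2RX7 was another, at -0.07, 0.76 ± 0.23 and -0.31. Normexp correction put both under 1.5-fold at 45 h, IL18 at 0.29 and P2RX7 at 0.41.

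Some genes were well above background on 1 array of the 45 h pair, where only a bound can be given. For this bound the bright signal was divided by the dim one, or by the lowest detected signal of the dim array where that was higher. Of 26 such genes bright with tetracycline 13 had a bound of at least 2-fold, and of 35 bright without it 6 did. TRAF5, an adaptor of TNF receptors, had 64.9 with tetracycline and was at least 7.19-fold higher, and it was not well above background on any other array. The chemokine gene CXCL12 was at least 4.10-fold higher, likewise on 1 array of 6. HGF, the hepatocyte growth factor that scatters MDCK cells, was at least 3.27-fold lower with tetracycline. Its signals without tetracycline were 33.9 at 45 h and 27.6 at 60 h, and it was not above background at 30 h or with tetracycline. SLC10A2, the bile acid transporter, showed the same pattern at 30.8 and 74.9 and was at least 2.97-fold lower at 45 h. HGF and SLC10A2 were thus called above background on the untreated arrays of 45 and 60 h alone. These are dim signals on single arrays, so when either gene came on was not tested.

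Gene lists were set beside all features, of which 3.28% were 1.5-fold higher and 4.39% lower, with a median of 0.03. Of the 28195 features 15486 had a positive sign and 12709 a negative one. The lists are drawn from the 1009 named genes, of which 3.67% were 1.5-fold higher and 6.64% lower. Of these named genes 527 had a positive sign and 482 a negative one. Among 12 measured coagulation and plasminogen genes 5 were 1.5-fold higher, among them F3, F2RL1, F9 and PLAU, 0 lower and 11 had a positive sign, with a list median of 0.19. Factor IX, F9, was dim there, at 12.7 and 20.7. With normexp correction F9 (0.07) and F2RL1 (0.51) were under 1.5-fold. Of 13 chemokines and receptors 5 were lower, 4 of them past 2-fold, and 0 were higher (median -0.41). CCL5 stood at -0.34 and the receptor CXCR3 at -0.05, so the list was led by a few of its ligands. The interferon and antigen presentation list had 3 of 19 lower, CXCL10, the antiviral gene MX1 (-0.70 ± 0.20) and the peptide transporter TAP1 (-0.60 ± 0.20), and 15 members of negative sign (median -0.17). TAP1 was just under 1.5-fold with normexp correction (-0.56) and with quantile scaling (-0.58).

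The junction lists were thinly covered at 45 h. Of 31 tight junction genes 7 were measured, and of 33 adherens junction, desmosome and keratin genes 7. None of the 7 tight junction genes passed 1.5-fold (median -0.19), 6 of 7 being of negative sign. CLDN2, a pore-forming claudin, had signals of 380.1 and 396 at 30 h, 528 and 407 at 45 h, and 890.0 and 285 at 60 h, with a difference of -0.38 ± 0.20 at 45 h and -1.64 at 60 h. The junction scaffold TJP1 was at -0.34 ± 0.09 with 1 of 2 probes on the other side of 0, and the cingulin gene CGN at -0.32 ± 0.20. Occludin, OCLN, stood at 0.13. Among 7 adherens junction, desmosome and keratin genes DSG3, a desmosomal cadherin, was the single one past 1.5-fold, at 0.72 ± 0.20 after -0.31, while E-cadherin, CDH1, was at 0.07. Of 35 polarity genes 5 were measured, and no listed gene of the Dlg, Lgl, Par or Crumbs groups had a named probe. Among the 5 the apical mucin MUC1 passed 1.5-fold (-0.74 ± 0.20), with ezrin, EZR, at -0.20 ± 0.20. Podocalyxin, PODXL, was at 0.13 ± 0.20 with 1 of 3 probes of that sign. The values in these lists describe the measured members and not junctions or polarity as a whole.

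The mesenchymal transition list went both ways, 3 of 11 being higher (SNAI2, TNC and COL1A1) and 3 lower (MMP9, VIM and S100A4), with a median of 0.15. S100A4, a calcium-binding protein of motile cells, was at 15015 and 8739 at 45 h (-0.78 ± 0.20). Of 16 matrix, protease and inhibitor genes 3 were higher, among them the metalloproteinase inhibitor TIMP3 (0.80 ± 0.21), and 3 lower, among them cathepsin S, CTSS (-0.64 ± 0.20). With normexp correction TNC (0.29), CTSS (-0.53) and ID3 (-0.57) were under 1.5-fold. In the TGF-beta and BMP list, of 6 measured, BMP4 and ID3 (-0.66 ± 0.20) were lower and 1 was higher, past 2-fold. The YAP and TEAD list had 4 measured members, of which F3 alone was past 1.5-fold. A list with 4 or 6 measured members describes those members and not a pathway.

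In the prostaglandin and sphingosine phosphate list 2 members had opposite signs at 30 and 45 h. PTGS2, which makes prostaglandin H, had signals of 2173 and 1494 at 30 h, 1065 and 1683 at 45 h, and 589 and 3456 at 60 h. It was lower with tetracycline at 30 h (-0.54) and higher at 45 h (0.66 ± 0.20). The sphingosine phosphate receptor S1PR1 did likewise, at -0.61 and 0.56 ± 0.30, though at signals of 15.6 and 22.9. The downstream synthases PTGES (-0.88 ± 0.20) and PTGES2 (-0.88 ± 0.21) were lower, each on 2 of 2 probes, so that 1 of 6 members was 1.5-fold higher and 2 lower. In the TNF and NF-kappaB list, 2 of 12 were higher, PTGS2 and the apoptosis inhibitor BIRC3 (0.93 ± 0.20), and 0 lower.

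Transport lists held both directions. Of 16 tubule water, ion and acid-base genes AQP1 was higher, with CA2 and a potassium channel gene, KCNJ16 (-0.89 ± 0.21), on the lower side and a median of -0.04. With normexp correction KCNJ16 (-0.51) and SLC7A11 (0.49) were under 1.5-fold. Of 24 solute carriers and ABC exporters ABCB1 and SLC7A11 were higher, and SLC6A12 (-1.08 ± 0.21), the nucleoside transporter SLC29A1 (-0.81 ± 0.20) and the glutamate transporter SLC1A1 (-0.71) were lower, with a median of 0.10. SLC2A1, the main glucose transporter of these cells, was at 41424 and 57778, a difference of 0.48 ± 0.20 after -0.02 at 30 h. Neither list as a whole lay far from the median of all features.

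**Figure D5:**
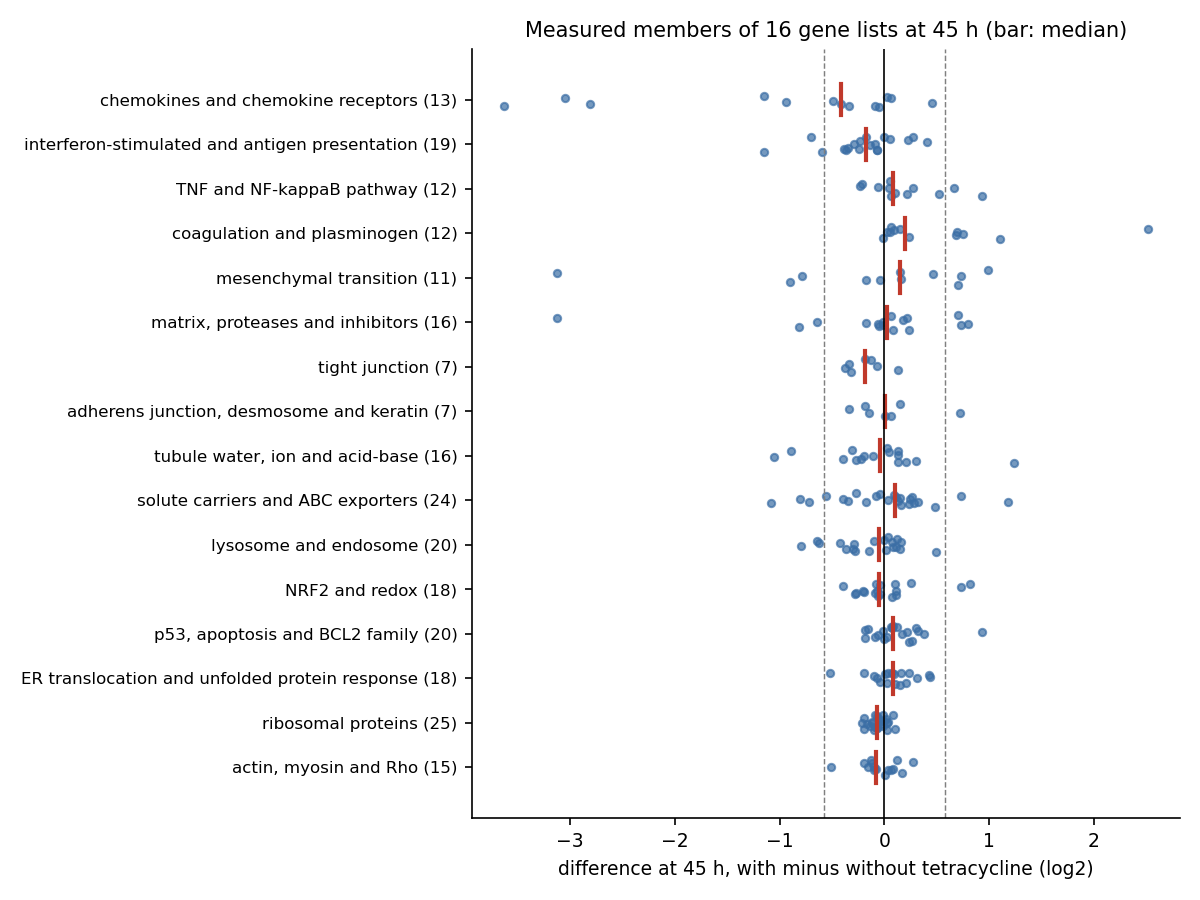
Difference at 45 h (log2, with minus without tetracycline) of each measured member of 16 gene lists, with the number measured in brackets; 1 point is 1 gene, red bars are list medians, dashed lines mark 1.5-fold and vertical scatter within a row has no meaning. Chemokines reach furthest to the lower side, while ribosomal proteins stay between -0.21 and 0.10.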

How the data were processed

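Per the labels, Cy3-labelled cRNA of each of the 6 groups was put on 1 dog array. The deposited scanner files hold spot intensity from Agilent Feature Extraction 11.5.1.1, per the file headers and the submitters' processing notes. Per the file headers, the processed intensity is background-subtracted and spatially detrended, with no scaling between arrays. The deposited series matrix equals it times 1 factor per array, 2.30 to 2.62, of unstated origin.

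Of 43803 non-control spots, outlier spots were left out and spots of a probe averaged (43584 of 43603 probes kept). Values are log2 of processed intensity less the array's 75th percentile; printed signals are the same values on a linear scale common to the arrays. Probes were named by unversioned accession through a RefSeq table of UU_Cfam_GSD_1.0, used for names alone: 2347 of 2440 NM_ and 5 of 5 NR_ accessions matched, and 0 of 3745 XM_ and 0 of 19064 Ensembl ones. The 2325 probes with a symbol cover 1436 genes, and a probe not named here may still have a gene. SCRIB had 0 matched probes.

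With 1 array per arm no test was possible, and the number of arrays limits the precision. The error printed is that of the scanner program. Counts use at least 2-fold (1 on the log2 scale) and 1.5-fold (0.58). First past 2-fold means at least 1 at 45 h and under 0.58 in size at 30 h, on features well above background on all 4 arrays. The members, the 33 gene lists, the 5 marker lists and these limits were chosen with earlier results of these data known. Named genes were, by rule, up to 25 in each direction past 2-fold at 45 h, up to 20 first past 2-fold (filled with genes of at least 0.58 at 45 h and under 0.29 at 30 h), up to 8 furthest outside the range of the other times, up to 4 members of each list, and up to 10 with a bound of at least 2-fold. Some genes that this rule takes are not reported here. UMOD, CCL5, CXCR3, OCLN, CDH1, SLC1A1, ADORA2B and CKMT2 fall outside this rule and were chosen after their values were seen.

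Alternatives were quantile and median scaling, the series matrix values, normexp correction (limma 3.58.1 in R 4.3.3, offset 50) on median in place of the planned mean spot signal, stricter and looser detection, the mean of a gene's probes and other limits. Leaving out the dimmest of 4 classes of features and the untreated 60 h array as reference were added after seeing the data. The counting steps were tested on simulated data. Python 3.11.15, numpy 2.4.6, pandas 2.3.3 and matplotlib 3.10.9 were used.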

Additional observations from a re-analysis of the deposited data

Results flagged for a closer look

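In 4 named genes the direction at 45 h opposed that of another time by at least 1.5-fold on both sides. None of these oppositions was tested, since each time has 1 pair of arrays. CCL4, a chemokine, was -0.93 at 45 h after 1.52 at 30 h, with signals of 22.9 and 65.7 at 30 h, 44.8 and 23.5 at 45 h, and 15.8 and 17.9 at 60 h, and its difference against the untreated 60 h array was 0.57. CKMT2, a mitochondrial creatine kinase, was -0.93 at 45 h and 2.61 at 30 h, where the treated array alone was high at 101. The adenosine receptor gene ADORA2B was 0.74 at 45 h and -1.22 at 30 h. The olfactory receptor gene OR6AA6 was 1.36 at 45 h and -1.15 at 60 h. All 4 belong to the dimmest of the 4 classes of features.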

How the results depend on the processing

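No paired analysis was possible because each arm has 1 array at each time, and for the same reason no array could be left out. Of 1049 values of named genes under scaling, background, detection and probe alternatives 986 differed from the main value by less than its scanner error. The other 63 differed by more, and 0 of those past 2-fold changed sign. Much of this was fixed in advance. The detection settings reuse the main values, the series matrix factor is removed by the scaling, and median scaling shifts all genes alike. Of 151 genes, normexp correction moved 54, the mean of a gene's probes 8 and quantile scaling 1. Under the same scaling, background, detection and probe alternatives 231 medians of gene lists were recomputed. All 231 differed from the main median by less than the SD among the list's members, or by less than the scanner error where a list had 1 member. That SD is a spread of members and not the error of a median. The outcome could therefore hardly fail and is no check on the medians. Of 68 recomputed counts 44 stayed within 1.5 times, quantile and median scaling, the series matrix values and the mean of a gene's probes among them. Of the others, those with normexp correction carry its offset, which by itself makes differences smaller, most of all between dim signals. How much of their fall the offset accounts for was not tested. For the rest the cause was not tested except where fewer or more features were admitted. With normexp correction 46 higher and 112 lower features passed 2-fold, 29 and 48 were first past it at 45 h, 23 and 44 held at 60 h, and 8 departed from the mean of the other times. With detection on 1 array of a pair the counts were 584 and 910, and 381 departed. Without the dimmest class they were 80 and 181, with 45 and 80 first past 2-fold and 19 departing. With the untreated 60 h array as reference 376 and 869 passed 2-fold, 291 and 643 were first past it, and the median of the mitochondrial list was 0.12 (main -0.05). Among named genes past 2-fold in the main values, DEFB127 (-0.12), EDA (0.68) and OR6AA6 (-0.24) took the other sign. Some named genes under 2-fold did so too, such as CCL4 (0.57, main -0.93). A limit of 1.5-fold gave 924 and 1239. Admitting features under 2-fold at 30 h gave 252 lower ones first past 2-fold, and a limit of 0.29 (log2) at 30 h gave 64 and 64. Signal over background limits the dimmest class, where the scanner error had a median of 0.26.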

Other observations

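Ribosomal protein genes lay close to 0 at 45 h. For the signs below, 527 of all 1009 named genes were positive and 482 negative. All 25 ribosomal protein genes were within -0.21 and 0.10, with RPS3 lowest, and 19 of them had a negative sign (median -0.07). In the endoplasmic reticulum list, 0 of 18 passed 1.5-fold and 13 were positive (median 0.08). The translocon subunit SEC61G had signals of 18676 without and 25238 with tetracycline (0.43 ± 0.20), and the signal recognition particle gene SRP54 was at 0.43 ± 0.20. Rab GTPases and traffic genes were positive in 11 of 15 (median 0.13), with RAB2A past 1.5-fold and RAB10, which serves basolateral transport, at 0.41 ± 0.20. The nuclear transport GTPase RAN was the single member of that list lower by 1.5-fold, on 2 of 2 probes (-0.64 ± 0.20).

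Lysosomal genes lay on both sides of 0, with 9 of positive and 11 of negative sign. Of these 20 measured, 3 were 1.5-fold lower and 0 higher (median -0.05). Of all features 4.39% were 1.5-fold lower, and of named genes 6.64%. NPC2, which hands cholesterol out of the lysosome, was at 4085 and 2361 (-0.79 ± 0.20). The galactosidase gene GLB1 was lower on 9 of 9 probes (-0.62 ± 0.20), and CTSS was at 675 and 433. Of 20 apoptosis regulators BIRC3 was past 1.5-fold, and the activator BAX had 0.37 ± 0.20 on 2 of 2 probes. Of 14 sulfotransferase, glycosylation and drug metabolism genes CHST4 (-1.16 ± 0.20) and the retinal dehydrogenase ALDH1A1 (-0.62 ± 0.20) were lower and 0 were higher. FABP1, a fatty acid carrier, was at 222 and 131 (-0.76 ± 0.21). With normexp correction GLB1 (-0.51) and FABP1 (-0.53) were under 1.5-fold, GLB1 (-0.57) also with the mean of its probes.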
